A study of Sus scrofa with 6 samples.

Results

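The enzymes that build triglyceride from glycerol phosphate, and those that break it down again, were followed in the back muscle longissimus dorsi of 2 pig breeds. The set was chosen by name and holds 10 genes: GPD1, GPAM, LPIN1, DGAT1 and DGAT2 on the synthesis side, and PNPLA2, ABHD5, PLIN5, LIPE and MGLL on the lipolysis side. Of these, 9 had a row among the 17627 genes of the expression table by their Ensembl identifier; DGAT2 was not analysed here. The study sequenced poly-A RNA from 3 libraries of Wannanhua, a local Chinese breed, and 3 of Yorkshire, a lean commercial breed, to find which genes differ between the muscles of the breeds. All 6 libraries are labelled with an age of 5 months, although the series' design text speaks of piglets, and no treatment is given for either breed. The labels do not say that the libraries of a breed came from separate animals, so the spread behind each p-value is that between libraries and may be technical. Where 3 values are given for a breed, they are those of its replicates 1, 2 and 3 in that order.

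Muscle keeps small droplets of triglyceride beside its mitochondria. The backbone is glycerol-3-phosphate; acyltransferases of the mitochondria and the endoplasmic reticulum add the fatty acids, a lipin removes the phosphate, and a diacylglycerol acyltransferase adds the last fatty acid. In lipolysis the fatty acids come off stepwise by adipose triglyceride lipase, hormone-sensitive lipase and monoglyceride lipase, and slow oxidative fibres are known to hold more droplets than fast glycolytic ones.

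Summed scaled counts, the authors' read counts after scaling of each library, ran from 16373268 to 19251335 per library, and 10726 to 11979 genes per library reached 1 FPKM (fragments per kilobase of transcript, scaled to the library's sequencing depth). The 9 genes all passed the filter on low values, with the lowest support, 35.6 scaled counts, for PLIN5 in Yorkshire 2. The tissue label was checked against 10 skeletal muscle markers, of which 6 had a row and 0 were at 0 throughout. Their summed level was 18622 to 20732 FPKM in Wannanhua and 26648 to 29844 in Yorkshire. The markers did not all move with this sum, as 4 of the 6 had higher means in Wannanhua and 2 lower. The 2 lower were ENO3, at means of 3954 FPKM in Wannanhua and 14482 in Yorkshire, and PYGM, at 2487 and 7010. The libraries also differed in fibre markers. The 5 slow-fibre markers with a row (of 11) summed to 38331, 41115 and 10122 FPKM in the Wannanhua libraries, and to 17028, 5588 and 9992 in the Yorkshire libraries. The 6 fast-fibre markers with a row (of 13) summed to 20213, 11608 and 36607 FPKM in the Wannanhua libraries and to between 53825 and 54950 in Yorkshire. Wannanhua 3 thus stood apart from the other Wannanhua libraries in its fibre markers, and each call below is given with and without it. In bulk muscle, fewer fibres of a type and less RNA per fibre cannot be told apart.

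The enzymes at the start of triglyceride synthesis moved in opposite directions. GPAM transcripts were 8.59-fold higher in Wannanhua muscle by group means and GPD1 transcripts 3.70-fold lower, and these were the 2 of 9 tested genes that passed the threshold (limma adjusted p under 0.05, over all 11791 tested genes). Of all tested genes 3.05% passed, 1.76% higher and 1.29% lower. The triglyceride lipase PNPLA2 and its coactivator ABHD5 stood about as far apart between breeds as each other, at 2.19-fold and 2.48-fold, without passing the threshold. DGAT1 and MGLL had nearly equal means in both breeds.

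**Figure D1:**
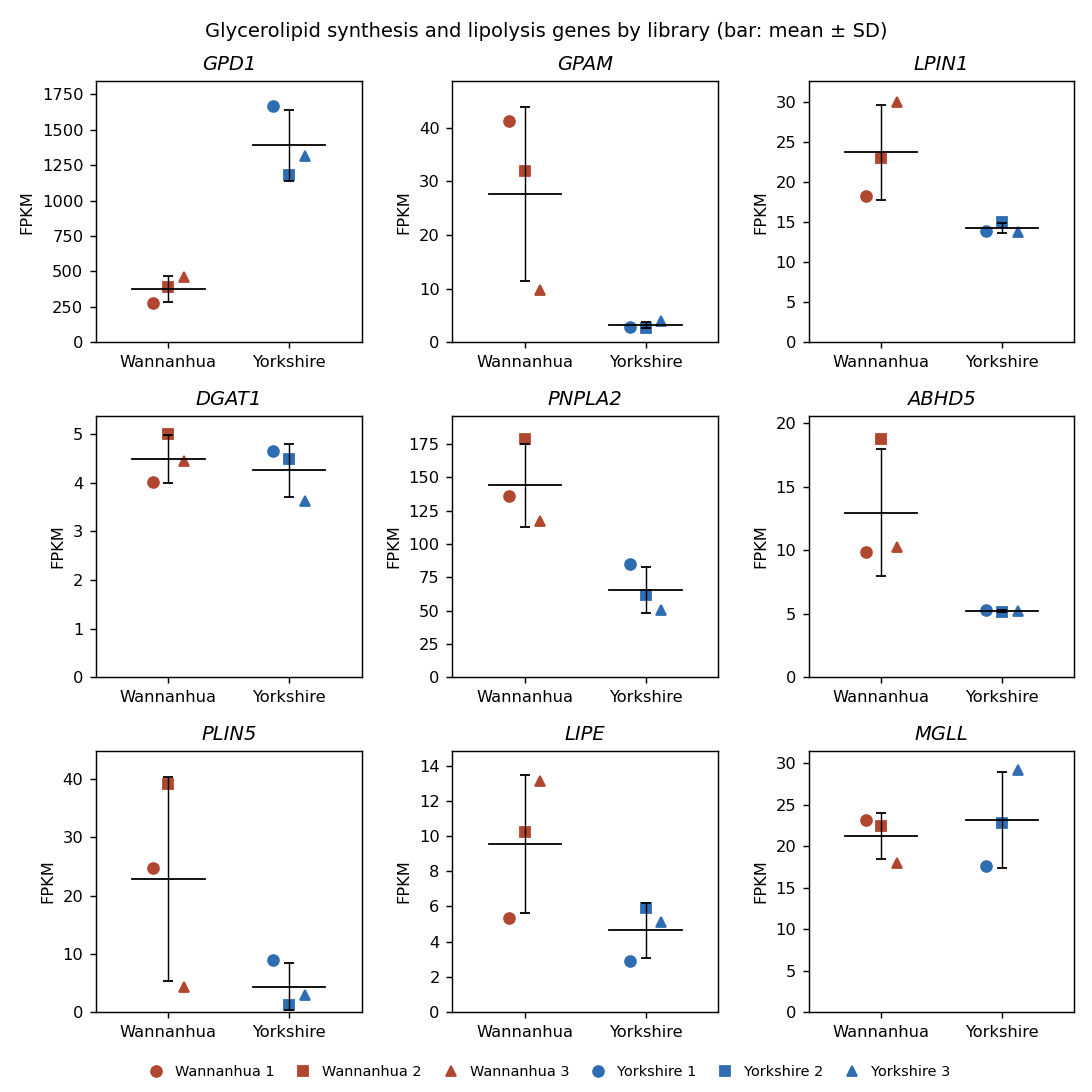
Expression (FPKM, linear axes from 0) of the 9 genes in each library, with Wannanhua in red, Yorkshire in blue and the marker shape giving the replicate number; the bar is the mean and the whisker the SD of 3 libraries. The breeds do not overlap for GPD1, GPAM, LPIN1, PNPLA2 and ABHD5 and overlap for the other 4.

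GPD1 (ENSSSCG00000000214) is the cytosolic dehydrogenase that makes glycerol-3-phosphate from a glycolytic intermediate. It stood at 278, 388 and 461 FPKM in the Wannanhua libraries and at 1668, 1183 and 1315 FPKM in the Yorkshire libraries. The lowest Yorkshire library was above the highest Wannanhua library. Group means were 376 ± 91.8 and 1389 ± 251 FPKM (SD, n = 3), a log2 fold change of -1.90 ± 0.26 (SE; limma adjusted p = 0.0223) on the log2(FPKM + 1) scale. GPD1 was the most abundant of the 9 genes in both breeds, ranking 75 of 17627 genes by mean FPKM in Yorkshire and 248 in Wannanhua. Without Wannanhua 3 its log2 fold change was -2.06 (limma adjusted p = 0.0114). The call was lost without Wannanhua 1, Wannanhua 2, Yorkshire 2 or Yorkshire 3 (limma adjusted p = 0.0843, 0.103, 0.0567 and 0.112), with the log2 fold change between -1.70 and -2.01.

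GPAM (ENSSSCG00000010631) is the mitochondrial acyltransferase that adds the first fatty acid to glycerol-3-phosphate. It stood at 41.3, 31.9 and 9.74 FPKM in the Wannanhua libraries, and at 2.95, 2.77 and 3.94 FPKM in the Yorkshire libraries. Wannanhua 3 was the lowest of its breed but still above all Yorkshire libraries. Means were 27.7 ± 16.2 and 3.22 ± 0.63 FPKM (SD, n = 3), a log2 fold change of 2.56 ± 0.48 (SE; limma adjusted p = 0.0422). Without Wannanhua 3 the log2 fold change was 3.15 (limma adjusted p = 0.00380). The call was lost without any 1 of the other 5 libraries (limma adjusted p = 0.143 and 0.145 without Wannanhua 1 and 2; 0.0856, 0.112 and 0.139 without Yorkshire 1, 2 and 3), with no filter on low values (0.0710) and after quantile normalization (0.0509).

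GPAM shares its step with GPAT3 and GPAT4, the acyltransferases of the endoplasmic reticulum, named here after their values were seen except GPAT4. GPAT4 stood at 47.0, 77.2 and 54.6 FPKM in the Wannanhua libraries and at 32.2, 36.0 and 40.1 in the Yorkshire libraries (log2 fold change 0.68 ± 0.22 SE; limma adjusted p = 0.134). GPAT3 stood at 8.57, 12.0 and 4.47 FPKM in the Wannanhua libraries and at 1.71, 4.26 and 2.77 in the Yorkshire libraries (log2 fold change 1.22 ± 0.37 SE; limma adjusted p = 0.116). Neither gene overlapped between breeds and neither passed the threshold. Of all tested genes, 20.3% were higher in Wannanhua without overlap. The levels of GPAT3 and GPAT4 add to those of GPAM. The 3 transcripts together came to 96.8, 121 and 68.8 FPKM in the Wannanhua libraries, against 36.9, 43.0 and 46.8 in the Yorkshire libraries. GPAM made up 42.6%, 26.4% and 14.2% of this sum in the Wannanhua libraries, and 8.00%, 6.44% and 8.42% in the Yorkshire libraries. GPAT4 was thus the most abundant of the 3 in every library, and GPAM came closest to it in Wannanhua 1. The share of GPAM was not a planned measure and was not tested.

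**Figure D2:**
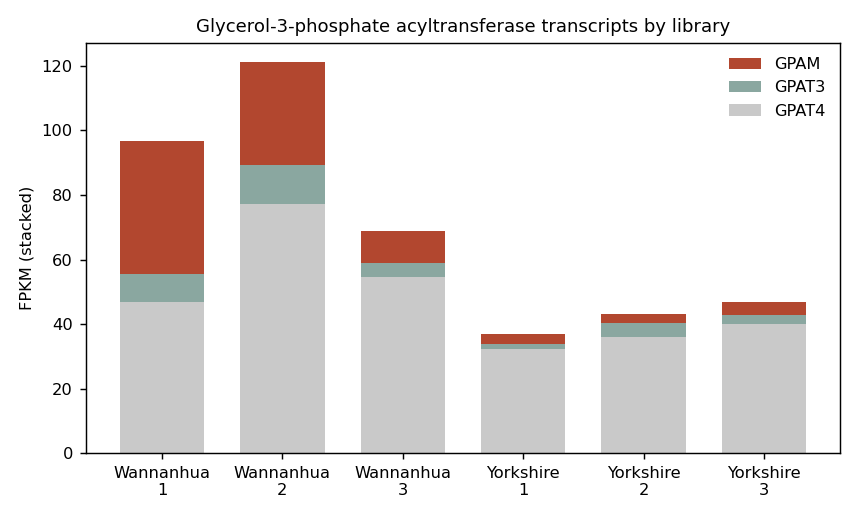
Stacked FPKM of GPAM (red), GPAT3 (green) and GPAT4 (grey), the glycerol-3-phosphate acyltransferases with a row, in each of the 6 libraries. The 3 Wannanhua bars reach 68.8 to 121 FPKM and the 3 Yorkshire bars 36.9 to 46.8, and the red part is 14.2% to 42.6% of the bar in Wannanhua and 6.44% to 8.42% in Yorkshire.

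The ratio of GPAM to GPD1 within a library, by FPKM, does not change with the scaling between libraries. It was 0.148, 0.0823 and 0.0211 in the Wannanhua libraries and 0.00177, 0.00234 and 0.00300 in the Yorkshire libraries. On the log2 scale the means were -3.97 ± 1.44 and -8.76 ± 0.38 (SD, n = 3), a difference of 4.78, and the breeds did not overlap. An exact two-sided permutation test gave p = 0.10 (0.40 adjusted over the 4 ratios computed), and 0.10 is the smallest p that 3 against 3 libraries allow. Since both genes passed the test above, the ratio is a description of these libraries.

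LPIN1 (ENSSSCG00000008624), a phosphatidate phosphatase that also acts as a transcriptional coactivator, stood at 18.2, 23.0 and 30.0 FPKM in the Wannanhua libraries. In the Yorkshire libraries it stood at 13.9, 15.0 and 13.8 FPKM. The breeds did not overlap, and Wannanhua 3, the lowest Wannanhua library for GPAM, was the highest for LPIN1. Its log2 fold change of 0.67 ± 0.21 (SE) did not pass (limma adjusted p = 0.124), with means of 23.7 ± 5.89 and 14.3 ± 0.68 FPKM (SD, n = 3). Without Wannanhua 3 the log2 fold change of LPIN1 was smaller, at 0.49 (limma adjusted p = 0.197).

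DGAT1 (ENSSSCG00000005918), a diacylglycerol acyltransferase of the last step, stood at 4.02, 5.00 and 4.45 FPKM in the Wannanhua libraries and at 4.65, 4.49 and 3.63 in the Yorkshire libraries. The breeds overlapped, and DGAT1 had the lowest mean over all libraries of the 9 genes. Its log2 fold change of 0.06 had a 95% interval from -0.34 to 0.47 (limma adjusted p = 0.858), and it was -0.08 after quantile normalization. A change of the size seen for GPAM lies outside that interval, while a modest one in either direction lies inside it.

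Among the lipolysis genes, 4 of 5 had higher means in Wannanhua and 0 passed in limma, although 4 had an unadjusted p under 0.05. Over all tested genes 62.6% had a positive log2 fold change and 22.1% an unadjusted p under 0.05. PNPLA2 (ENSSSCG00000012841), adipose triglyceride lipase, removes the first fatty acid. It stood at 136, 179 and 117 FPKM in the Wannanhua libraries and at 84.7, 61.9 and 50.6 in the Yorkshire libraries, without overlap. Means were 144 ± 31.4 and 65.7 ± 17.4 FPKM (SD, n = 3), with a log2 fold change of 1.13 ± 0.25 (SE; limma adjusted p = 0.0601). PNPLA2 passed with a filter at 5 FPKM (limma adjusted p = 0.0492) and with scaled counts in place of FPKM (0.0438), and its adjusted p ran from 0.0438 to 0.200 over 14 alternatives.

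ABHD5 (ENSSSCG00000011297), also called CGI-58, activates PNPLA2. It stood at 9.84, 18.7 and 10.3 FPKM in the Wannanhua libraries and at 5.26, 5.16 and 5.24 in the Yorkshire libraries. The Yorkshire libraries had an SD of 0.051 FPKM, and all Wannanhua libraries were above them, Wannanhua 2 by the most. Its log2 fold change of 1.11 ± 0.25 (SE) did not pass (limma adjusted p = 0.0626). Relative to PNPLA2 in the same library, ABHD5 stood at 0.0723, 0.105 and 0.0878 in the Wannanhua libraries and at 0.0621, 0.0835 and 0.103 in the Yorkshire libraries. These ratios overlapped, with a mean log2 difference of 0.10 (exact two-sided permutation p = 0.70; 0.93 adjusted over 4 ratios).

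PLIN5 (ENSSSCG00000013513), the perilipin of oxidative tissues, coats droplets, binds ABHD5 and PNPLA2 and tethers droplets to mitochondria. It had the largest standard error of the 9 genes, with 24.8, 39.3 and 4.40 FPKM in the Wannanhua libraries and 8.97, 1.28 and 2.94 FPKM in the Yorkshire libraries. Wannanhua 1 and 2 were high, while Wannanhua 3 fell below Yorkshire 1. Means were 22.8 ± 17.5 and 4.40 ± 4.05 FPKM (SD, n = 3), a log2 fold change of 1.99 ± 0.80 (SE; limma adjusted p = 0.204). Without Wannanhua 3 the log2 fold change was 2.85 (limma adjusted p = 0.0529). Over 14 alternatives the limma adjusted p of PLIN5 ran from 0.0529 to 0.465. Relative to PNPLA2, PLIN5 stood at 0.183, 0.220 and 0.0376 in the Wannanhua libraries and at 0.106, 0.0207 and 0.0581 in the Yorkshire libraries, with a mean log2 difference of 1.19 (exact two-sided permutation p = 0.30; 0.60 adjusted over 4 ratios).

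LIPE (ENSSSCG00000003018), hormone-sensitive lipase, acts mainly on diacylglycerol. It stood at 5.33, 10.2 and 13.1 FPKM in the Wannanhua libraries and at 2.92, 5.90 and 5.13 in the Yorkshire libraries. Wannanhua 1 lay among the Yorkshire libraries, and the log2 fold change of 0.86 ± 0.34 (SE) did not pass (limma adjusted p = 0.200). Without Wannanhua 3 the log2 fold change of LIPE was smaller, at 0.62 (limma adjusted p = 0.364). In both breeds LIPE was a minor transcript beside PNPLA2, at a ratio of 0.0392, 0.0572 and 0.112 in the Wannanhua libraries and of 0.0344, 0.0954 and 0.101 in the Yorkshire libraries. The mean log2 difference of this ratio was -0.14 (exact two-sided permutation p = 1.0, also after adjustment).

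MGLL (ENSSSCG00000024134), monoglyceride lipase, releases the last fatty acid. It stood at 23.2, 22.5 and 18.0 FPKM in the Wannanhua libraries and at 17.6, 22.8 and 29.1 in the Yorkshire libraries. The libraries of the breeds were interleaved. Its log2 fold change of -0.10 had a 95% interval from -0.62 to 0.42 (limma adjusted p = 0.822). Of the summed FPKM of the 3 lipases, PNPLA2 made up 82.7%, 84.5% and 79.0% in the Wannanhua libraries. In the Yorkshire libraries it made up 80.5%, 68.3% and 59.7%, so that Yorkshire 1 lay within the Wannanhua range. This share was computed after the values were seen and was not tested.

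**Figure D3:**
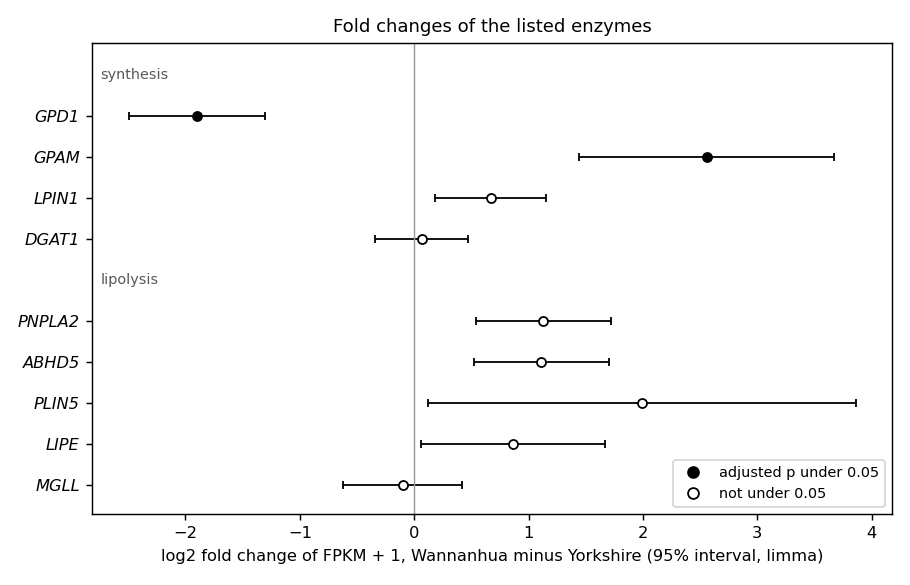
Log2 fold change of FPKM + 1, Wannanhua minus Yorkshire, of the 9 genes, with the 95% interval from limma; filled points passed an adjusted p of 0.05. GPD1 at -1.90 and GPAM at 2.56 are filled and lie on opposite sides of 0, and the intervals of DGAT1 and MGLL include 0.

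Across the 9 genes, 7 had a positive log2 fold change and 2 a negative one, with a median of 0.86 against 0.12 over all tested genes, of which 62.6% were positive. After quantile normalization the median over all genes was 0.0042 and that of the 9 genes 0.70. An unadjusted limma p under 0.05 was reached by 7 of the 9 genes, against 22.1% of all tested genes. The breeds did not overlap in 5 of the 9, 4 higher and 1 lower in Wannanhua. Over all tested genes this held for 29.9%, 20.3% higher and 9.63% lower. The set was chosen with earlier results of these data known, so these counts describe it and do not test it.

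PLIN5 ordered the libraries as the summed slow-fibre markers did, from Wannanhua 2 through Wannanhua 1, Yorkshire 1, Wannanhua 3 and Yorkshire 3 to Yorkshire 2. This was noticed after the values were seen, and 59 of the 11791 tested genes (0.500%) had the same order. The order rests in part on Wannanhua 3 and Yorkshire 3, whose slow-fibre sums were close, at 10122 and 9992 FPKM, and of the 5 markers TNNC1 and MYL3 were higher in Yorkshire 3. The other 8 genes had another order. The summed fast-fibre markers were higher in each Yorkshire library than in Wannanhua 3, and higher in Wannanhua 3 than in Wannanhua 1 and 2. Of the 6 markers in this sum, ATP2A1 was higher in Wannanhua 3 than in Yorkshire 1, at 4074 and 3643 FPKM. PVALB was higher in Wannanhua 3 than in Yorkshire 2, at 44.9 and 29.5 FPKM. GPD1 split the libraries in the same way as the sum. GPAM and PNPLA2 split them in the reverse way, with Wannanhua 1 and 2 highest, then Wannanhua 3, then the Yorkshire libraries. GPAT3 and, described below, AGPAT5, ACSL1 and ACSL3 did so too. Some other genes that were higher in Wannanhua without overlap did not. Wannanhua 3 was the highest library for LPIN1 and, described below, for GPD1L and PRKAR2A. For ABHD5 and GPAT4 the lowest Wannanhua library was Wannanhua 1. The share of all tested genes with the fast-fibre split or its reverse was not computed, but 29.9% did not overlap between breeds. The part of fibre type in the breed differences was not tested.

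**Figure D4:**
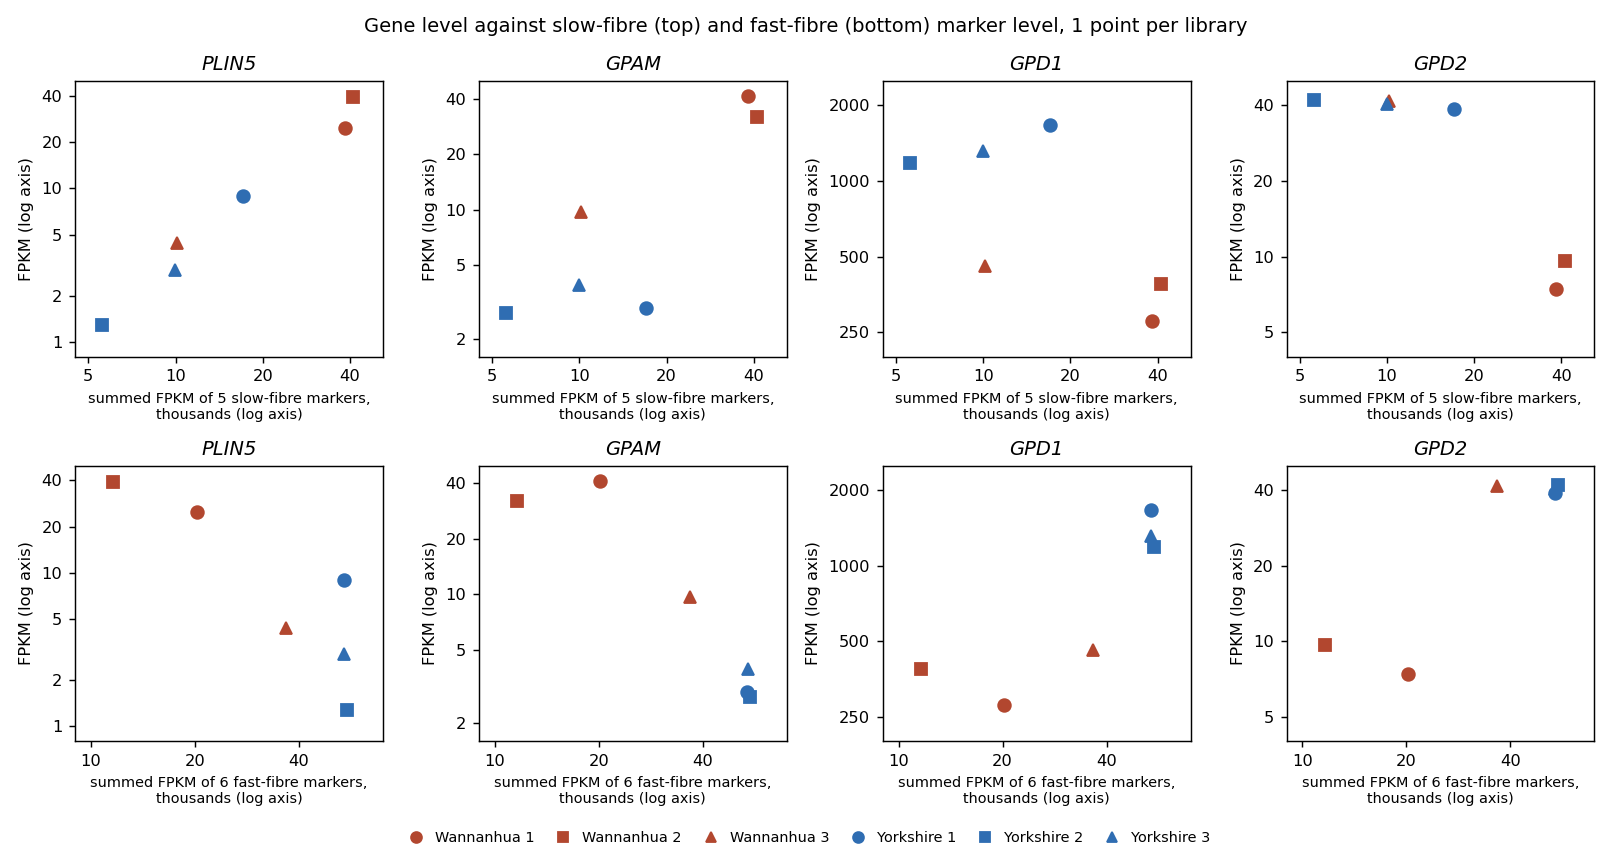
FPKM of PLIN5, GPAM, GPD1 and GPD2 (log axes) against the summed FPKM of 5 slow-fibre markers (top) and of 6 fast-fibre markers (bottom), with 1 point per library in the colours and shapes of the breeds and replicates. Wannanhua 3 and Yorkshire 3 have slow-fibre sums of 10122 and 9992 FPKM and fast-fibre sums of 36607 and 53931 FPKM; in the bottom row the Yorkshire libraries lie at the right, with the highest GPD1 and the lowest GPAM.

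Adipocytes between the fibres could also carry these transcripts. Of 12 adipocyte markers 6 had a row, and none of the 6 was at 0 in all libraries. Their sum was 73.7, 91.8 and 82.8 FPKM in the Wannanhua libraries and 86.6, 91.0 and 98.8 in the Yorkshire libraries, which overlap. Of the 5 that were tested, 4 had a positive log2 fold change and 0 passed in limma. CFD supplied most of the sum and had lower values in Wannanhua without overlap, at 60.6 to 72.8 FPKM against 74.9 to 84.6 (limma adjusted p = 0.367). Of the droplet proteins typical of fat cells, PLIN1 stood at 5.77, 7.40 and 7.52 FPKM in the Wannanhua libraries and at 0.42, 5.44 and 5.98 in the Yorkshire libraries, lowest in Yorkshire 1. CIDEC, another of them, overlapped, at 4.38, 6.48 and 3.59 FPKM in the Wannanhua libraries and at 0.866, 6.55 and 4.76 in the Yorkshire libraries. Like PLIN1, it was lowest in Yorkshire 1, as were TRARG1 and PPARG, at 0 and 0.750 FPKM. CFD and SLC7A10, the latter not tested, were lowest in Wannanhua 1 instead. These markers were named after their values were seen. Yorkshire 1 was also the lowest library for LIPE and MGLL but the highest for GPD1 and, within Yorkshire, for PNPLA2, PLIN5, ABHD5 and DGAT1. It had the fewest genes at 1 FPKM of all libraries, at 10726. Over the tested genes its Spearman correlation was 0.913 with Yorkshire 2 and 0.926 with Yorkshire 3, while Wannanhua 3 had 0.928 with each. Blood markers, of which 3 of 5 had a row, summed to 144, 119 and 44.5 FPKM in the Wannanhua libraries and 95.1, 18.6 and 20.2 in the Yorkshire libraries. The part of adipocytes or blood in the results was not tested.

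The other genes of glycerolipid synthesis mostly had higher means in Wannanhua without passing. Of 23 listed, 15 had a row and 13 were tested. In limma 0 passed and 7 had an unadjusted p under 0.05 (6 higher, 1 lower), against 22.1% of all tested genes. The 1 lower was GPD2, listed here although it belongs to a shuttle with GPD1. The median log2 fold change was 0.57. A positive log2 fold change was found for 11 of the 13, against 62.6% of all tested genes, and after quantile normalization for 10 of the 13 against 50.5%. Of the 13, 7 did not overlap between breeds, all 7 higher in Wannanhua, against 20.3% of all tested genes. AGPAT5 and GPD1L, described in the rest of this paragraph, were chosen after their values were seen. AGPAT5, a lysophosphatidate acyltransferase of the next step, stood at 35.9, 43.4 and 32.1 FPKM in the Wannanhua libraries and at 14.5, 23.5 and 20.6 in the Yorkshire libraries (log2 fold change 0.91 ± 0.22 SE; limma adjusted p = 0.0768). GPD1L, the relative of GPD1, differed in the direction opposite to GPD1, at 29.5, 22.6 and 34.4 FPKM in the Wannanhua libraries and at 14.3, 17.3 and 16.5 in the Yorkshire libraries (log2 fold change 0.79 ± 0.20 SE; limma adjusted p = 0.0795). GPD1 still made up 90.4% to 94.5% of the sum of both in Wannanhua and 98.6% to 99.2% in Yorkshire, a share that was not planned and not tested.

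GPD2, the mitochondrial glycerol phosphate dehydrogenase that forms a shuttle with GPD1, was low in Wannanhua 1 and 2. It stood at 7.43, 9.65 and 41.6 FPKM in the Wannanhua libraries and at 38.8, 42.0 and 40.4 in the Yorkshire libraries. Wannanhua 3 was inside the Yorkshire range. The log2 fold change with all libraries, -1.40 ± 0.55 (SE), did not pass (limma adjusted p = 0.196). Without Wannanhua 3 it was -2.13 (limma adjusted p = 0.00450). GPD2 passed in only 1 of 14 alternatives, with a limma adjusted p of up to 0.442. FITM1, a droplet-forming protein of skeletal muscle, had the highest mean FPKM of the list and similar values throughout, from 85.3 to 91.9 FPKM in Wannanhua and from 74.8 to 87.4 in Yorkshire (log2 fold change 0.12, 95% interval -0.25 to 0.50; limma adjusted p = 0.690).

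**Figure D5:**
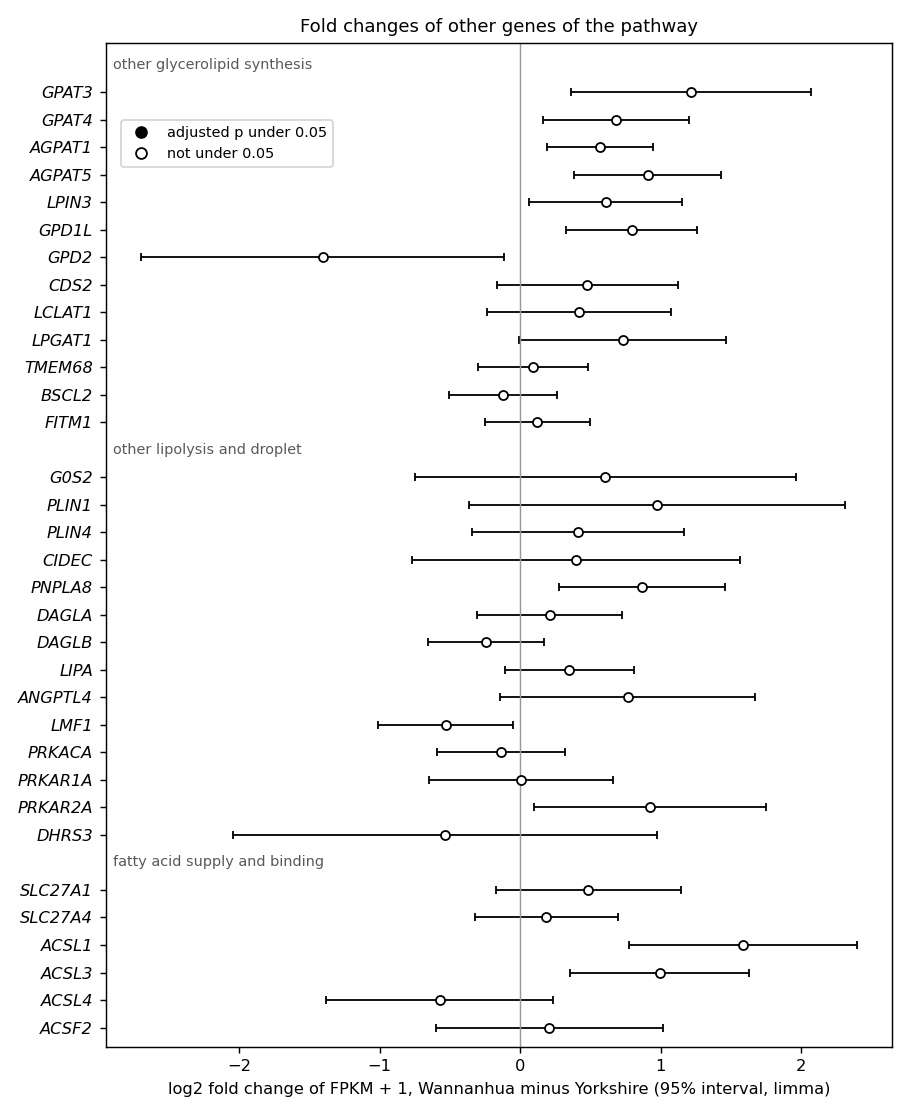
Log2 fold change of FPKM + 1, Wannanhua minus Yorkshire, with the 95% interval from limma, of the 33 tested genes on the lists of other synthesis genes, other lipolysis and droplet genes, and fatty acid supply. All points are open, as 0 of the 33 passed an adjusted p of 0.05; 26 lie above 0 and 7 below.

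The list of other lipolysis and droplet genes was more mixed. Of 32 listed, 20 had a row and 14 were tested; 0 passed in limma, 3 had an unadjusted p under 0.05 (2 higher, 1 lower), near the 22.1% of all tested genes, and the median was 0.37 against 0.12. The 3 most abundant were subunits of protein kinase A, which phosphorylates LIPE. PRKACA, its catalytic subunit, had a mean of 66.9 ± 10.7 FPKM in Wannanhua, and the Yorkshire mean was 73.2 ± 9.11 (SD, n = 3; limma adjusted p = 0.722). The regulatory subunit PRKAR1A stood at 78.0 ± 15.1 and 79.6 ± 25.4 FPKM (limma adjusted p = 0.994). PRKAR2A, another regulatory subunit, stood at 91.8, 91.2 and 105 FPKM in the Wannanhua libraries and at 27.0, 68.6 and 67.2 in the Yorkshire libraries (limma adjusted p = 0.186). G0S2, the inhibitor of PNPLA2, named after its values were seen, varied within each breed, at 9.53, 16.9 and 40.6 FPKM in the Wannanhua libraries and 13.6, 21.5 and 5.75 in the Yorkshire libraries (limma adjusted p = 0.578). PLIN4, the neighbour of PLIN5 in the genome and also named after its values were seen, did not share its pattern, at 31.9, 39.8 and 42.0 FPKM in the Wannanhua libraries and 16.4, 39.7 and 33.6 in the Yorkshire libraries (limma adjusted p = 0.489).

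Fatty acids enter both pathways as acyl-CoA. Of 12 genes listed for fatty acid supply and binding, 8 had a row and 6 were tested; 0 passed in limma, 2 had an unadjusted p under 0.05, against 22.1% of all tested genes, and the median was 0.35. These 2 were long-chain acyl-CoA synthetases. ACSL1, the main one of muscle and fat, stood at 431, 272 and 173 FPKM in the Wannanhua libraries and at 117, 83.4 and 75.0 in the Yorkshire libraries, without overlap. The log2 fold change of 1.58 ± 0.35 (SE) missed the threshold (limma adjusted p = 0.0581), and ACSL1 passed without Wannanhua 3 (0.0224), with scaled counts (0.0478) and with a filter at 5 FPKM (0.0482). Its limma adjusted p ran from 0.0224 to 0.193 over 14 alternatives. ACSL3, a synthetase found on droplets, stood at 38.1, 44.5 and 23.1 FPKM in the Wannanhua libraries and at 13.2, 18.3 and 18.8 in the Yorkshire libraries (limma adjusted p = 0.0973, and 0.0304 without Wannanhua 3). ACSL3 passed in only 1 of 14 alternatives, with a limma adjusted p of up to 0.274. The fatty acid transporter SLC27A1 overlapped between breeds, at 15.4 ± 5.05 and 10.5 ± 2.67 FPKM (SD, n = 3; limma adjusted p = 0.357).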

How the data were processed

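Poly-A RNA of 6 muscle libraries was measured with a library kit that, per the labels' protocols, does not mark strand. Per the submitters' processing notes, TopHat2 2.0.6, CASAVA 1.7 and the build Sscrofa10.2 are named without roles; for the read counter and annotation, nothing was given in the sources used here. The authors deposited FPKM and, per the file headers, counts; these counts are not whole and are treated as a signal scaled per library by the authors. Gene symbols were looked up by Ensembl identifier, which matched 10384 of 17627 (58.9%). In RefSeq's Sscrofa11.1, a later build than the one named, the spans of GPD1, LPIN1, DGAT1, LIPE and MGLL overlap that of another gene. Strand and exons were not compared, so whether reads of these genes could be mixed was not settled.

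Breeds were compared on log2(FPKM + 1), which understates changes of low genes, by limma 3.58.1 in R 4.3.3 with breed as the only term and trend and robust settings. Genes needed 1 FPKM in 3 libraries, and p-values were adjusted by Benjamini-Hochberg over 11791 genes. Left out were 7 genes with a scaled count of at least 10000 in 1 library and a listed 0 in another. Ratios were tested by exact permutation (SciPy 1.17.1). The fit was tested on simulated data. Members and lists were chosen with earlier results of these data known. The genes named are the members, any listed pathway gene past the threshold, and the 3 of highest mean FPKM per pathway list; others are marked. Alternatives were the pseudocount, filter, scaling, limma settings, replicate block, scaled counts (added after seeing the data), keeping the 7 genes (also added) and leaving out each library. The planned DGAT2 to DGAT1 ratio could not be computed. No interval for counting error is given, as the scaled counts are not whole.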

Additional observations from a re-analysis of the deposited data

How the results depend on the processing

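Of 11791 genes 360 passed, 69 with no filter, 205 with the replicate block and 11 to 504 with 1 library left out (11 without Yorkshire 3, 504 without Wannanhua 3); 57.8% of the calls were higher in Wannanhua, and 40.8% after quantile normalization. Of the 9 enzymes 2 passed, and 1 (GPD1) with no filter, after quantile normalization and with the replicate block; 0 to 2 passed with 1 library left out, 0 without Wannanhua 1, Wannanhua 2, Yorkshire 2 or Yorkshire 3. The counts were 2 with a pseudocount of 0.1 and without trend and robust settings, and 3 with a filter at 5 FPKM and with scaled counts. GPD1 kept its direction in 14 of 14 alternatives (log2 fold change -2.06 to -1.70) and GPAM in 14 of 14 (2.17 to 3.15). With 1 library left out, 0 to 1 of the other synthesis genes passed, GPD2 without Wannanhua 3. Of the fatty acid supply genes 1 passed, ACSL1, with a filter at 5 FPKM, the replicate block and scaled counts, and 0 to 2 with 1 library left out. The direction turned for DGAT1 (-0.08 after quantile normalization, -0.02 to 0.13 with 1 library left out), MGLL (-0.28 to 0.07), PRKACA (-0.23 to 0.00) and PRKAR1A (-0.03 after quantile normalization, -0.01 with scaled counts, -0.26 to 0.22 with 1 library left out), none of which passed in any of these. The causes were not tested.

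With the replicate block the adjusted p was 0.0562 for GPAM and 0.0380 for ACSL1. A check of whether the replicate numbers pair the libraries did not settle it. Same-numbered libraries correlated at 0.10, -0.012 and 0.11 in their deviations from the breed means. Only Wannanhua 1 and 3 and Yorkshire 1 and 3 correlated best with their own number. Deviations from means of 3 libraries cannot exclude a pairing. The planned edgeR and DESeq2 tests were not run, because the search for whole reads did not succeed in 4 of the 6 libraries. With 3 libraries a breed, the intervals of DGAT1 and MGLL leave room for modest differences in either direction.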
